A study of Mus musculus with 8 samples.

Results

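Collagens, laminins and the other building blocks of basement membranes were examined in endothelial cells of the early postnatal mouse brain. The genes were taken by name: every collagen alpha chain (Col, a number, a, a number), every laminin alpha, beta or gamma chain (Lama, Lamb or Lamc with a number), and Nid1, Nid2, Hspg2, Agrn and Sparc. That gave 60 genes of the 24394 symbols shared by all 8 tables. The rule reads names alone. The 4 YAPTAZ-ECKO libraries came from mice carrying the tamoxifen-inducible Cre VE-cadherin-CreERT2 and floxed alleles of both Yap and Taz (mouse symbols Yap1 and Wwtr1), so that recombination is directed to endothelial cells. The 4 WT libraries came from mice labelled wild type. All 8 are labelled as C57BL/6J and hold endothelial cells of the brain, collected by cell sorting on postnatal day 8. The labels do not mention tamoxifen for either group, nor Cre or floxed alleles in WT, so the deletion cannot be told apart from the Cre and the floxed alleles themselves. Whether each library is a mouse of its own is not said either, and the spread behind each p-value may therefore be technical.

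A basement membrane is a thin sheet of matrix on which endothelial cells rest. Laminin heterotrimers polymerise at the cell surface, a network of type IV collagen gives the sheet its tensile strength, and nidogens and the heparan sulfate proteoglycans perlecan and agrin bind these networks to each other. In the brain the endothelial sheet lies between endothelium and pericytes and adjoins a second, astrocyte-derived one. Fibrillar collagens (types I, II, III, V, XI, XXIV and XXVII) build the cables of connective tissue, and types I, III and V are textbook products of fibroblasts. YAP and TAZ, the effectors of Hippo signalling, have no DNA-binding domain and reach their genes by way of TEAD transcription factors.

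The deposited log2 values were returned to the linear scale and read, from the spacing of the low ones, as scaled reads, meaning counts of reads brought to about the same total in every library. Each library summed to 10.29 to 10.93 M scaled reads, and the spacing of low values implied 6.76 to 13.5 M reads in YAPTAZ-ECKO and 7.54 to 16.8 M in WT. Between 7538 and 8762 symbols were above 0 in YAPTAZ-ECKO and between 8621 and 9720 in WT. Wwtr1 stood at 348 to 2608 scaled reads in YAPTAZ-ECKO and 5650 to 8220 in WT, and Yap1 at 9.29 to 604.7 in YAPTAZ-ECKO and 1409 to 2833 in WT. YAPTAZ-ECKO libraries correlated less with each other (mean r of 0.691 to 0.736 on the log2 scale) than with WT libraries (0.714 to 0.782). Xist stood at 6.91 scaled reads in YAPTAZ-ECKO 4 and between 4150 and 22931 in the other libraries (the labels give no sex). All 14 endothelial markers were above 0 in some library, led by Esam and Cldn5, with sums of 108976 to 135817 scaled reads in YAPTAZ-ECKO and 106616 to 124669 in WT.

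Vascular basement membrane genes were well represented in these cells, and most of the other collagen and laminin genes were too low to be tested. All 13 genes of the vascular list (Col4a1, Col4a2, Lama4, Lama5, Lamb1, Lamb2, Lamc1, Nid1, Nid2, Hspg2, Agrn, Col15a1 and Col18a1) reached 10 scaled reads in 4 or more libraries, the filter for testing, as did Sparc. Of the other 46 genes, 5 passed: Lama1, the fibrillar chains Col3a1 and Col5a2, the transmembrane collagen Col13a1, and Col26a1. Thus 19 of 60 were tested. Another 23 were at 0 in all 8 libraries and 18 were above 0 in some library without passing. A gene that passes through values in 1 group only had to differ between the groups, so the 19 do not stand for all 60.

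**Figure D1:**
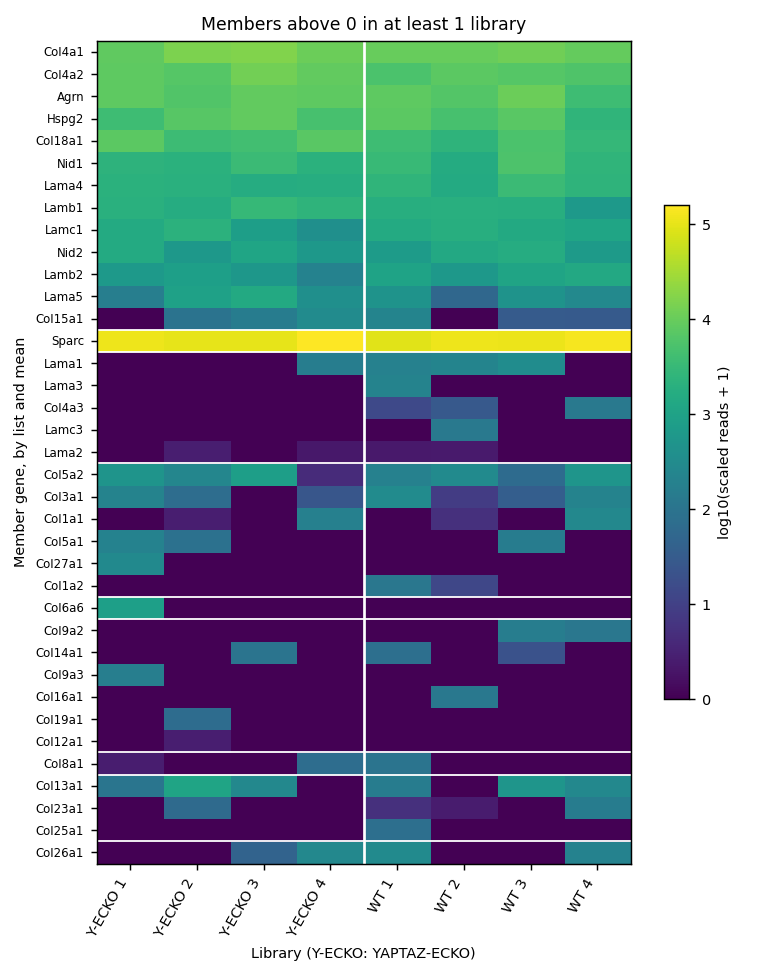
Scaled reads of the genes above 0 in at least 1 library (rows, by list and mean) in the 8 libraries (columns, YAPTAZ-ECKO left of WT), as log10(scaled reads + 1); white lines part the lists. The 13 vascular basement membrane genes at the top and Sparc are above 0 in all 8 libraries except Col15a1, which is at 0 in YAPTAZ-ECKO 1 and WT 2, while most other rows are at 0 in several of them.

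The part of the library given to the 13 vascular genes was of like size in both groups. Their summed scaled reads were 46203, 49326, 62902 and 48369 in YAPTAZ-ECKO 1 to 4, against 46907, 40104, 57040 and 33764 in WT 1 to 4. That is 0.445% to 0.604% of a library in YAPTAZ-ECKO and 0.309% to 0.525% in WT. The sums overlapped, with YAPTAZ-ECKO 3 highest and WT 4 lowest. For the 11 fibrillar collagens the sums were 1189, 401.5, 816.9 and 206.8 scaled reads in YAPTAZ-ECKO 1 to 4, against 621.8, 334.1, 249.5 and 987.4 in WT 1 to 4. These overlapped throughout, the highest and the lowest both being YAPTAZ-ECKO libraries. Fibrillar chains made up 0.426% to 2.51% of the reads of both lists together in YAPTAZ-ECKO and 0.436% to 2.84% in WT. In bulk samples fewer cells of a type and less RNA per cell cannot be told apart.

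**Figure D2:**
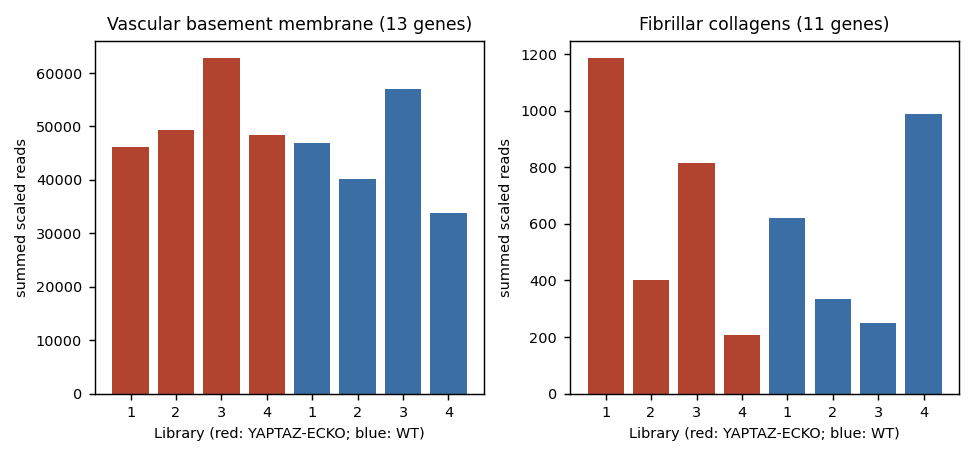
Summed scaled reads of the vascular basement membrane list (left) and of the fibrillar collagens (right), with 1 bar per library, YAPTAZ-ECKO 1 to 4 in red left of WT 1 to 4 in blue; the vertical scales differ. Vascular sums lie between 33764 and 62902 and fibrillar sums between 206.8 and 1189, with overlap between the groups in both.

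No gene of the 60 passed the test between YAPTAZ-ECKO and WT. With limma on the log2 of scaled reads plus a pseudocount and Benjamini-Hochberg adjustment over all 8706 genes tested, 0 of the 19 tested were called at an adjusted p under 0.05, against 0.0345% of all tested genes (3 genes, all lower in YAPTAZ-ECKO and none of them among the 60). At an unadjusted p under 0.05 the count was also 0 of 19, against 5.47% of all tested genes (1.78% higher and 3.69% lower in YAPTAZ-ECKO), and with voom on rebuilt reads no gene was called. The 4 YAPTAZ-ECKO values lay entirely above or below the 4 WT values for 0 of the 19, against 3.40% of all tested genes (1.33% above and 2.07% below). Higher values in YAPTAZ-ECKO were found for 11 of the 19 and for 43.1% of all tested genes. Adjusted p-values of the 19 ran from 0.928 to 0.996 (limma). The lowest exact two-sided permutation p among them was 0.0571, for Col4a2, where 4 libraries against 4 allow 0.0286 at the lowest.

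How large a change these libraries would still allow depended on the gene. The 95% interval of the log2 difference lay wholly within 1 unit of 0 (a 2-fold change) for 4 of the 19, namely Sparc, Col4a1, Agrn and Hspg2. The distance from the estimate to either end of the interval ran from 0.33 for Sparc to 1.40 for Col13a1, with a median of 0.94 over the 19 and 1.10 over all tested genes. The pseudocount shrinks the fitted differences of genes with few reads.

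Over the 13 vascular genes the fitted difference was higher in YAPTAZ-ECKO for 8 and lower for 5, with a median of 0.18 against -0.09 over all tested genes. With 1 library left out this median ran from -0.08 (without WT 4) to 0.37 (without YAPTAZ-ECKO 1). The 2 tested fibrillar chains had one value on each side of 0 and a median of -0.08, which ran from -0.32 (without WT 3) to 0.25 (without YAPTAZ-ECKO 4) with 1 library left out. Single genes of the vascular list ranged from -0.80 (Lamb2) to 0.80 (Lama5).

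**Figure D3:**
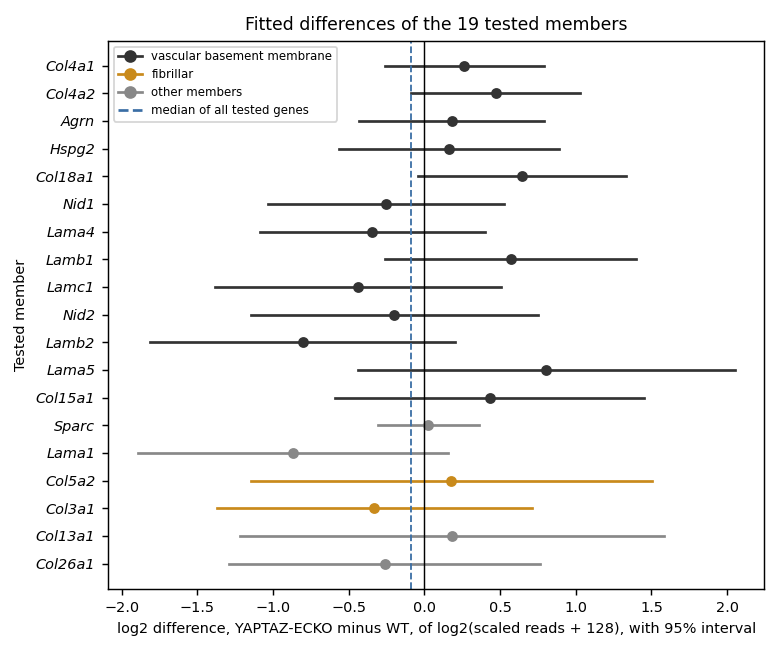
Fitted log2 difference (YAPTAZ-ECKO minus WT, with the pseudocount) of each of the 19 tested genes, with its 95% interval; vascular basement membrane genes are black, fibrillar collagens ochre and others grey, and the dashed line marks the median of all tested genes at -0.09. Every interval includes 0, and those of Sparc, Col4a1, Agrn and Hspg2 stay within 1 unit of it.

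Type IV collagen of vessels is a heterotrimer of alpha 1 and alpha 2 chains, encoded by Col4a1 and Col4a2. The genes lie head to head on chromosome 8 (GRCm38 and GENCODE M21 positions throughout), Col4a1 from 11198423 to 11312826 on the minus strand and Col4a2 from 11312805 to 11449287 on the plus strand, so that their annotated first exons overlap by 22 bases. That stretch is printed because both transcripts start in it (RefSeq promoter table, GRCm38.p6, chr8:11312805-11312826, plus strand).
Col4a1/Col4a2 shared start: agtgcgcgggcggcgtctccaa
It holds the letters of a GC box (GGGCGG), and so did 30 of 49 promoter windows of the 60 genes and 35.7% of all 32851 windows in the table, each 300 bases long and read on both strands.

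Col4a1 stood at 8504, 15255, 16407 and 10631 scaled reads in YAPTAZ-ECKO 1 to 4, against 9981, 9749, 11658 and 9575 in WT 1 to 4. Libraries of the WT group were close together, and the YAPTAZ-ECKO libraries fell on both sides of them, with YAPTAZ-ECKO 2 and 3 above all WT libraries and YAPTAZ-ECKO 1 below. The mean was 12699 ± 3748 scaled reads in YAPTAZ-ECKO and 10241 ± 959.3 in WT (SD, n = 4 each), and the log2 difference was 0.26 ± 0.26 (SE; 95% interval -0.26 to 0.79; limma adjusted p = 0.990), with 0.12 without YAPTAZ-ECKO 3 and 0.44 without YAPTAZ-ECKO 1. Col4a2 stood at 8046, 6803, 12178 and 9046 scaled reads in YAPTAZ-ECKO 1 to 4, against 5319, 7691, 6640 and 5861 in WT 1 to 4. Here YAPTAZ-ECKO 1, 3 and 4 were above every WT library and YAPTAZ-ECKO 2 was below WT 2. The log2 difference of Col4a2 was 0.47 ± 0.27 (SE; 95% interval -0.09 to 1.03; limma unadjusted p = 0.0938, adjusted p = 0.960). Despite the shared start, the deviations of the 2 genes from their group means correlated weakly over the 8 libraries (Pearson r = 0.26, given as a description). Col4a2 made up 30.8% to 48.6% of the reads of the pair in YAPTAZ-ECKO and 34.8% to 44.1% in WT.

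The type IV chains of other basement membranes were close to undetected. Col4a3, which with Col4a4 and Col4a5 forms the network of the glomerulus, was listed at 0 in all 4 YAPTAZ-ECKO libraries and at 12.9, 27.2, 0 and 128.3 scaled reads in WT 1 to 4. Col4a4, Col4a5 and Col4a6 were at 0 in all 8 libraries. These genes are also head to head, with 71 bases between Col4a4 and Col4a3 on chromosome 1 and 1308 bases between Col4a6 and Col4a5 on the X chromosome.

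Laminin alpha chains carry the binding sites for integrins and dystroglycan. Lama4 (chromosome 10, 38965515 to 39110188, plus strand), which encodes the alpha 4 chain of endothelial laminin, stood at 2088, 1958, 1674 and 1704 scaled reads in YAPTAZ-ECKO 1 to 4, against 2495, 1536, 3490 and 2379 in WT 1 to 4. All YAPTAZ-ECKO values fell within the range of WT, with WT 2 the lowest of the 8. The log2 difference was -0.34 ± 0.36 (SE; 95% interval -1.09 to 0.40; limma adjusted p = 0.990). Lama5 (chromosome 2, 180176373 to 180225859, minus strand), whose alpha 5 chain is the other endothelial alpha chain, stood at 163.3, 925.4, 1420 and 379.2 scaled reads in YAPTAZ-ECKO 1 to 4, against 463.7, 54.5, 465.9 and 276.5 in WT 1 to 4. YAPTAZ-ECKO 2 and 3 were above all WT libraries while YAPTAZ-ECKO 1 was below all of them but WT 2. Its log2 difference of 0.80 ± 0.60 had a wide interval (SE; 95% interval -0.44 to 2.05; limma adjusted p = 0.981). It was 0.42 without YAPTAZ-ECKO 3 (limma unadjusted p = 0.521) and 1.23 without YAPTAZ-ECKO 1 (limma unadjusted p = 0.0452, adjusted p = 0.842). YAPTAZ-ECKO 1 was the lowest of its group, so a smaller p follows from leaving it out. Lama5 supplied 7.25% to 45.9% of the reads of these 2 alpha chains in YAPTAZ-ECKO and 3.43% to 15.7% in WT.

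Lama1 (chromosome 17, 67697259 to 67822647, plus strand), an alpha chain of the parenchymal and meningeal basement membranes of the brain, was found mainly in WT. It stood at 158.6 scaled reads in YAPTAZ-ECKO 4 and was listed at 0 in YAPTAZ-ECKO 1 to 3, against 187.9, 223.5 and 343.0 in WT 1 to 3 and 0 in WT 4. The pattern is thus 1 of 4 YAPTAZ-ECKO libraries against 3 of 4 WT libraries, and it did not pass the test (log2 difference -0.87 ± 0.50, SE; 95% interval -1.89 to 0.16; limma unadjusted p = 0.0929, adjusted p = 0.960). The unadjusted limma p was 0.0287 without YAPTAZ-ECKO 4 and 0.0302 without WT 4, with adjusted p-values of 0.780 and 0.971. These are the libraries that break the pattern, so a smaller p follows from leaving them out. With any other library left out the unadjusted limma p ran from 0.137 (without WT 1) to 0.211 (without WT 3). Lama2, the alpha chain laid down by astrocytes and pericytes, did not exceed 1.79 scaled reads in any library. Lama3, an epithelial chain, was above 0 in WT 1 alone, at 212.3 scaled reads.

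Each laminin trimer takes a beta chain and a gamma chain. Lamb1 (chromosome 12, 31265234 to 31329644, plus strand) stood at 1954, 1652, 3059 and 2362 scaled reads in YAPTAZ-ECKO 1 to 4, against 1837, 1908, 1836 and 642.7 in WT 1 to 4. YAPTAZ-ECKO 1, 3 and 4 were above every WT library, and WT 4 was far below the other 7. The log2 difference was 0.57 ± 0.40 (SE; 95% interval -0.26 to 1.40; limma adjusted p = 0.981), and 0.23 without WT 4. Lamb2 (chromosome 9, 108479736 to 108490530, plus strand), the beta chain of mature vessels and of synaptic laminins, stood at 637.4, 842.2, 551.8 and 200 scaled reads in YAPTAZ-ECKO 1 to 4, against 1035, 590.6, 1082 and 1387 in WT 1 to 4. WT 1, 3 and 4 were above every YAPTAZ-ECKO library, and WT 2 lay among them. Its log2 difference was -0.80 ± 0.49 (SE; 95% interval -1.81 to 0.20; limma unadjusted p = 0.113, adjusted p = 0.974).

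Set side by side within a library, Lamb1 supplied 75.4%, 66.2%, 84.7% and 92.2% of the Lamb1 and Lamb2 reads in YAPTAZ-ECKO 1 to 4, against 64%, 76.4%, 62.9% and 31.7% in WT 1 to 4. Overlap of the shares was found at YAPTAZ-ECKO 1 and 2 and WT 2. No test was made of this share. Lamc1 (chromosome 1, 153218922 to 153332786, minus strand), the gamma chain of most laminins, stood at 1540, 2187, 831.2 and 379.2 scaled reads in YAPTAZ-ECKO 1 to 4, against 1506, 1802, 1440 and 1152 in WT 1 to 4. Among YAPTAZ-ECKO libraries the values were split around WT, with 2 above or within its range and 2 below it. The log2 difference was -0.44 ± 0.46 (SE; 95% interval -1.38 to 0.51; limma adjusted p = 0.990), and ran from -0.77 without YAPTAZ-ECKO 2 to -0.04 without YAPTAZ-ECKO 4. Lamb3 was at 0 in all 8 libraries, and Lamc3 was above 0 in WT 2 alone, at 127.9 scaled reads.

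**Figure D4:**
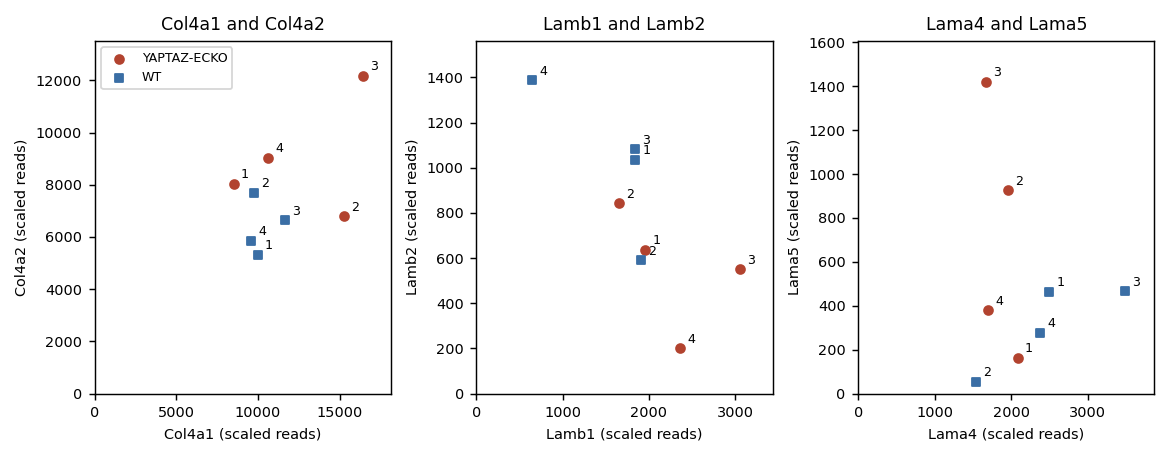
Scaled reads of Col4a1 against Col4a2, Lamb1 against Lamb2 and Lama4 against Lama5; each point is a library with its number, YAPTAZ-ECKO as red circles and WT as blue squares. YAPTAZ-ECKO 3 and 4 have the highest Lamb1 values with Lamb2 at 551.8 and 200, while WT 4 has the lowest Lamb1 (642.7) and the highest Lamb2 (1387).

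Nidogens join the laminin network to type IV collagen. Nid1 (chromosome 13, 13437551 to 13512269, plus strand) stood at 2263, 2058, 3576 and 2126 scaled reads in YAPTAZ-ECKO 1 to 4, against 3258, 1581, 5619 and 2511 in WT 1 to 4, with every YAPTAZ-ECKO value inside the WT range. Nid2 (chromosome 14, 19751265 to 19811787, plus strand) stood at 1509, 581.6, 1135 and 596.3 scaled reads in YAPTAZ-ECKO 1 to 4, against 726.6, 1350, 1645 and 694.1 in WT 1 to 4. Both groups of Nid2 held a high and a low pair of libraries. The log2 differences were -0.25 ± 0.38 for Nid1 and -0.20 ± 0.46 for Nid2 (SE; limma adjusted p = 0.990 and 0.991).

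Perlecan and agrin are the heparan sulfate proteoglycans of the sheet, and agrin is also known from the brain for its high level around microvessels. Hspg2 (perlecan; chromosome 4, 137468769 to 137570630, plus strand) stood at 3764, 7019, 8786 and 4905 scaled reads in YAPTAZ-ECKO 1 to 4, against 7913, 4949, 7368 and 2478 in WT 1 to 4. Agrn (chromosome 4, 156165290 to 156197488, minus strand) stood at 8107, 6221, 8971 and 8175 scaled reads in YAPTAZ-ECKO 1 to 4, against 8266, 6450, 10543 and 3935 in WT 1 to 4. For both genes WT 4 was the lowest of the 8 libraries. The log2 differences were 0.16 ± 0.35 for Hspg2 (95% interval -0.57 to 0.89) and 0.18 ± 0.30 for Agrn (95% interval -0.43 to 0.79; SE, limma adjusted p = 0.991 and 0.990). Without WT 4 they were -0.18 and -0.08.

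Collagens XV and XVIII carry heparan or chondroitin sulfate chains and sit in vascular basement membranes, and the C-terminal fragment of collagen XVIII is endostatin. Col18a1 (chromosome 10, 77052178 to 77166548, minus strand) had the smallest unadjusted p of the 19. It stood at 7628, 3730, 4162 and 7538 scaled reads in YAPTAZ-ECKO 1 to 4, against 3888, 2442, 5224 and 2845 in WT 1 to 4. YAPTAZ-ECKO 1 and 4 were above all WT libraries, and YAPTAZ-ECKO 2 and 3 lay among them. The mean was 5764 ± 2108 scaled reads in YAPTAZ-ECKO and 3600 ± 1243 in WT (SD, n = 4 each; log2 difference 0.65 ± 0.33, SE; 95% interval -0.04 to 1.33; limma unadjusted p = 0.0651, adjusted p = 0.928). Leaving out YAPTAZ-ECKO 2, YAPTAZ-ECKO 3 or WT 3 brought the unadjusted limma p to 0.0297, 0.0398 and 0.0282, with adjusted p-values of 0.743, 0.753 and 0.996. YAPTAZ-ECKO 2 and 3 were the lowest of their group and WT 3 the highest of its own, so a smaller p follows from leaving them out. Each of the other omissions raised the unadjusted limma p. It was 0.1765 without YAPTAZ-ECKO 1, 0.1871 without YAPTAZ-ECKO 4, 0.183 without WT 2 and 0.1353 without WT 4. Without WT 1 it was 0.0696. Col15a1 (chromosome 4, 47208161 to 47313167, plus strand) was low, at 0, 93.0, 151.2 and 326.3 scaled reads in YAPTAZ-ECKO 1 to 4 and 216.2, 0, 29.4 and 28.8 in WT 1 to 4, and its log2 difference was 0.43 ± 0.49 (SE; limma adjusted p = 0.990).

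Sparc (chromosome 11, 55394500 to 55423183, minus strand) encodes a collagen-binding matricellular protein that many cells secrete where matrix is being built. It stood at 114501, 101351, 101985 and 152241 scaled reads in YAPTAZ-ECKO 1 to 4, against 93068, 118047, 113081 and 135225 in WT 1 to 4. Its mean of 117520 ± 23927 in YAPTAZ-ECKO and 114855 ± 17349 in WT (SD, n = 4 each) corresponds to 0.949% to 1.40% of a library in YAPTAZ-ECKO and 0.904% to 1.24% in WT. The log2 difference of 0.03 ± 0.16 was the most narrowly bounded of the 19 (SE; 95% interval -0.31 to 0.36; limma adjusted p = 0.996).

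**Figure D5:**
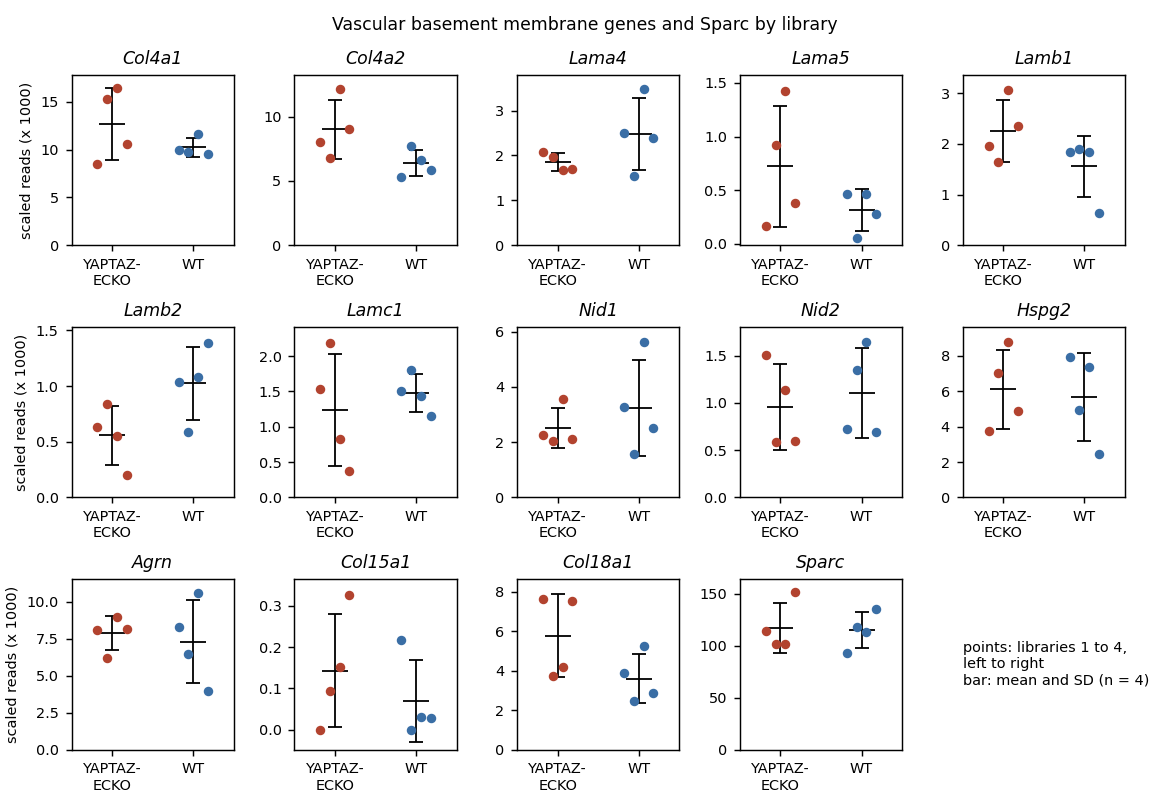
Scaled reads (a linear axis for each gene) of the 13 vascular basement membrane genes and Sparc in each library, YAPTAZ-ECKO in red left of WT in blue; points are libraries 1 to 4 and bars the mean ± SD (n = 4). The groups overlap in every panel, and WT 4 is the lowest library for Lamb1, Hspg2 and Agrn and the highest for Lamb2.

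Fibrillar collagens were scarce and irregular. Col3a1 (chromosome 1, 45311538 to 45349706, plus strand), the chain of type III collagen, stood at 215.4, 70.03, 0 and 24.1 scaled reads in YAPTAZ-ECKO 1 to 4, against 316.5, 7.21, 35.5 and 208.8 in WT 1 to 4. Col5a2 (chromosome 1, 45374321 to 45503282, minus strand), a chain of the type V collagen that nucleates fibrils, lies 24614 bases beyond it and stood at 483.4, 242.9, 816.9 and 3.46 in YAPTAZ-ECKO 1 to 4, against 190.9, 311.0, 64.1 and 513.1 in WT 1 to 4. Values of the pair thus ran from 0 to 816.9 in YAPTAZ-ECKO and from 7.21 to 513.1 in WT. The log2 differences were -0.33 ± 0.51 for Col3a1 and 0.18 ± 0.64 for Col5a2 (SE; limma adjusted p = 0.990 and 0.994), and the sign for Col5a2 turned with smaller pseudocounts and when single libraries were left out.

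Col1a1 and Col1a2, the chains of type I collagen, were never found in the same library with the exception of WT 2. Col1a1 stood at 1.76 and 179.1 scaled reads in YAPTAZ-ECKO 2 and 4 and at 4.35 and 265.6 in WT 2 and 4. Col1a2 was at 0 in every YAPTAZ-ECKO library and at 114.4 and 11.5 in WT 1 and 2. Both were at 0 in YAPTAZ-ECKO 1, YAPTAZ-ECKO 3 and WT 3. Col5a1 was above 0 in YAPTAZ-ECKO 1, YAPTAZ-ECKO 2 and WT 3 and Col27a1 in YAPTAZ-ECKO 1 alone, and the 5 other fibrillar chains (Col2a1, Col5a3, Col11a1, Col11a2 and Col24a1) were at 0 in all 8 libraries.

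Of the other collagen families, Col13a1 and Col26a1 alone passed the filter. Of the 8 collagens of type VI and its relatives, the microfibrillar and anchoring types, Col6a6 was above 0, in YAPTAZ-ECKO 1 alone at 863.5 scaled reads, and 7 were at 0 in all 8 libraries. Of the 9 FACIT collagens, which decorate fibrils, 6 were above 0 in some library (Col9a2, Col9a3, Col12a1, Col14a1, Col16a1 and Col19a1) and none passed the filter. Of the 3 network-forming short chains, Col8a1 was above 0 in YAPTAZ-ECKO 1, YAPTAZ-ECKO 4 and WT 1, at 1.61, 69.99 and 98.1 scaled reads. Among the transmembrane collagens Col13a1 (chromosome 10, 61838236 to 61979108, minus strand) stood at 104.8, 1099, 270.2 and 0 scaled reads in YAPTAZ-ECKO 1 to 4, against 148.6, 0, 510.9 and 262.7 in WT 1 to 4 (log2 difference 0.18 ± 0.68, SE; limma adjusted p = 0.994). Col23a1 and Col25a1 were above 0 in some library and Col17a1 in none. Col26a1 averaged 78.1 ± 128.7 scaled reads in YAPTAZ-ECKO and 125.8 ± 151.9 in WT (SD, n = 4 each; limma adjusted p = 0.991).

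Other cells of the vessel wall were measured beside these genes, since fibroblasts and pericytes also make collagens and laminins. Of 13 mural cell markers 12 were above 0 in some library, and their sums were 155.6 to 1248 scaled reads in YAPTAZ-ECKO and 412.7 to 1821 in WT. The most abundant were Rgs5 and Abcc9, and Rgs5 stood at 0 to 418.5 scaled reads in YAPTAZ-ECKO and 107.4 to 680.3 in WT. Abcc9 was above 0 only in YAPTAZ-ECKO 2 (767.0), YAPTAZ-ECKO 3 (95.94) and WT 1 (325.6). The means of these markers thus differed in opposite directions. Rgs5 averaged 105.8 in YAPTAZ-ECKO and 314.4 in WT, while Abcc9 averaged 215.7 and 81.4. Of 13 markers of perivascular and meningeal fibroblasts, Lum, Dpt and Slc6a13 were at 0 in all 8 libraries, and the sums, led by Foxc1 and Igf2, were 2195 to 4217 in YAPTAZ-ECKO and 3342 to 4030 in WT. Sums of 10 astrocyte markers were 497.4 to 1252 in YAPTAZ-ECKO and 802.4 to 2006 in WT, led by Gja1 and Fgfr3, with Aldh1l1 and S100b at 0 in all 8. The part of these cells in the values above was not tested.

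Sums of 10 neuronal and oligodendrocyte markers, led by Rbfox3 and Cnp, were 731.7 to 2666 scaled reads in YAPTAZ-ECKO and 7.96 to 618.0 in WT. These sums did not overlap and were not tested, while both leading markers overlapped. Rbfox3 stood at 1375, 0, 0 and 489.4 in YAPTAZ-ECKO 1 to 4, against 0 to 8.65 in WT. Cnp stood at 280.1, 101.1, 714.1 and 0 in YAPTAZ-ECKO 1 to 4, against 1.99 to 514.8 in WT. The erythroid sums, led by Hba-a1 and Hba-a2, were 17869 to 60042 in YAPTAZ-ECKO and 17753 to 49654 in WT. Hba-a1 and Hba-a2 had the same value as each other in every library. Reads counted for both genes would make the erythroid sums too high, which was not tested. As these are bulk values, RNA of such other cells takes a part of the library in which the collagens and laminins are counted.

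Enzymes and chaperones that fold and modify collagen gave no call. Of 25 listed genes 18 were tested, 12 with higher and 6 with lower values in YAPTAZ-ECKO, with a median log2 difference of 0.05 and 0 called. Colgalt2, which adds galactose to hydroxylysine, stood at 1379, 681.7, 863.5 and 1026 scaled reads in YAPTAZ-ECKO 1 to 4, against 438.7, 259.4, 631.2 and 530.1 in WT 1 to 4, so the groups did not overlap (log2 difference 0.92 ± 0.48, SE; limma adjusted p = 0.928). It was 1 of the 18 without overlap, where 3.40% of all tested genes had none. Plod2, a lysyl hydroxylase of the sites used for cross-links, stood at 720.1, 250, 0 and 236.7 scaled reads in YAPTAZ-ECKO 1 to 4, where WT 1 to 4 had 98.2, 0, 1.72 and 1.99 (limma adjusted p = 0.882). P3h1, a prolyl 3-hydroxylase, was at 6.21, 1798, 6.89 and 468.9 in YAPTAZ-ECKO 1 to 4 and at 614.4 to 1389 in WT.

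Among 14 tested genes of matrix cross-linking and assembly, 6 had higher and 8 lower values in YAPTAZ-ECKO (median log2 difference -0.08), and 0 were called. The groups did not overlap for Mmrn2 (higher in YAPTAZ-ECKO), Pxdn (lower) and Ntn1 (lower), where 3.40% of all tested genes had no overlap. Ntn1 was tested through its 4 WT values alone, so its lack of overlap was fixed by the filter. Mmrn2, an endothelial matrix protein named after its values were seen, stood at 4580, 5545, 5890 and 4291 scaled reads in YAPTAZ-ECKO 1 to 4, against 2994, 2976, 3451 and 3913 in WT 1 to 4 (log2 difference 0.59 ± 0.30, SE; limma adjusted p = 0.928). Pxdn encodes peroxidasin, which forms the sulfilimine bonds of type IV collagen, and stood at 130.9, 657.1, 672.3 and 553.7 scaled reads in YAPTAZ-ECKO 1 to 4, against 1560, 845.7, 1036 and 885.9 in WT 1 to 4 (log2 difference -1.03 ± 0.50, SE; limma unadjusted p = 0.0480, adjusted p = 0.910). Ntn1, a laminin-related guidance protein, was listed at 0 in all 4 YAPTAZ-ECKO libraries and at 84.8, 47.3, 138.6 and 71.6 in WT 1 to 4 (limma adjusted p = 0.873). Tinagl1, a basement membrane glycoprotein, stood at 1970, 1647, 2209 and 841.0 in YAPTAZ-ECKO 1 to 4, where WT 1 to 4 had 1536, 945.5, 653.0 and 250.6, with overlap (limma adjusted p = 0.910).

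Of 9 tested receptors for laminin and collagen, 4 had higher and 5 lower values in YAPTAZ-ECKO (median log2 difference -0.02), and 0 were called. Itga6, the alpha 6 integrin chain that binds laminin, stood at 10668 and 9469 scaled reads in YAPTAZ-ECKO 1 and 2 and at 6766 and 8209 in YAPTAZ-ECKO 3 and 4, against 6170, 6980, 6089 and 3777 in WT 1 to 4. YAPTAZ-ECKO 3 fell below WT 2 and the other 3 were above every WT library (log2 difference 0.61 ± 0.28, SE; limma adjusted p = 0.882). Ddr1, a collagen receptor kinase, was at 0 in 3 YAPTAZ-ECKO libraries and at 1810 in YAPTAZ-ECKO 1, against 246.4 to 1798 in WT (limma adjusted p = 0.977). Sdc3, a syndecan, averaged 915.6 ± 420.6 in YAPTAZ-ECKO and 1249 ± 387.9 in WT (SD, n = 4 each; limma adjusted p = 0.990).

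Promoters of the tested genes were searched for the core letters of the TEAD site, GGAATG on either strand (CATTCC on the other), because YAP and TAZ act through TEAD factors. Of the 19 tested genes 13 had a window in the RefSeq table (GRCm38.p6; 250 bases before and 50 after a start); Lama1, Lama4, Lamc1, Nid2, Col5a2 and Col26a1 had none. The letters were in a window of 3 of the 13, Col18a1, Nid1 and Col3a1. They were in 7 of the 49 windows of the 60 genes (14.3%) and in 14.7% of all windows in the table. The 4 copies are shown with 12 bases on either side, 5′ to 3′ on the strand of the gene, with the TEAD letters in capitals.
Col3a1, chr1:45311358-45311387, plus strand: tatcacaaagcaCATTCCtatgtgtttctg
Col18a1, chr10:77113792-77113821, minus strand: tcaggctgggttCATTCCcttctgccagag
Col18a1, chr10:77113742-77113771, minus strand: gactgggaaccaGGAATGagggagggtggg
Nid1, chr13:13437425-13437454, plus strand: cgggttggatccGGAATGctgggaaccaac
Both Col18a1 copies lie before a start inside the gene, whose 5′ end on the minus strand is at 77166548. The values, 1 per gene, do not tell transcripts of different starts apart. Fitted log2 differences of the 3 genes lay on both sides of 0, at 0.65 for Col18a1, -0.25 for Nid1 and -0.33 for Col3a1. A match of letters is a description and not a binding site.

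Among themselves the vascular genes and Sparc varied with little in common. Over the 91 pairs of these 14 genes, the correlation of deviations from the group means across the 8 libraries had a median Pearson r of 0.14. The highest was 0.86, between Agrn and Lamb1, followed by 0.85 between Col4a1 and Lama5. The lowest was -0.70, between Hspg2 and Sparc, and Lamb1 and Lamb2 gave -0.51. Over the same 8 libraries, the genes outside the 60 whose deviations were most like those of Col4a1 were Podxl (r = 0.995), Hipk2 (0.991), Lgals1 (0.984), Hdac7 (0.974) and Ppme1 (0.973). All these values share the libraries and their scaling, and are given as a description.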

How the data were processed

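Endothelial cells sorted from mouse brain at postnatal day 8 were profiled in 4 YAPTAZ-ECKO and 4 WT libraries. Per the labels' protocols, RNA was taken with Trizol, and libraries were made from 500 ng with Lexogen's Quant-Seq chemistry. The authors deposited 1 log2 value per gene and library; Bowtie2, edgeR and mm10 are named in the submitters' processing notes. Versions, annotation and strand setting are not given in the sources consulted.

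Low values were spaced by a step fixed for each library (89.8% to 100% of values under 12 were within 0.1 of a multiple), so values were read as log2 of scaled read counts. They were returned to the linear scale with 0 kept at 0; step and total gave the implied depth. Of 24421 symbols, 24394 were shared by all 8 tables. Because the deposited values are log2, limma 3.58.1 (R 4.3.3) with trended, robust moderation was run on log2(scaled reads + 128) for the 8706 genes reaching 10 scaled reads in 4 or more libraries, with Benjamini-Hochberg adjustment and 0.05 as the threshold. Exact permutation tests were two-sided. The function was tested on simulated data.

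The genes and lists were chosen with earlier results of these data known. Every tested gene of the 60 is named; supporting lists give the 3 genes with the smallest p, and marker lists the 2 most abundant; some items are not reported here. Coordinates are GENCODE M21 on GRCm38, the build called mm10. Reads of overlapping genes could not be told apart without a strand setting. Alternatives covered scaling, filters, pseudocounts, voom, array weights, the replicate number and each library left out.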

Additional observations from a re-analysis of the deposited data

Results flagged for a closer look

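In 38 groups of 4 libraries (19 tested genes, each in YAPTAZ-ECKO and WT), 5 held a highest or lowest library whose distance to its nearest neighbour, divided by the range of the group, was above Dixon's 95% critical value for 4 samples. For normally distributed values chance gives about 1 in 20 groups. That rate need not hold for linear scaled reads, and the groups flagged for Lama1, Col26a1 and Col15a1 hold values at 0. The 5 are therefore not read as an excess. Lama1 stood at 158.6 scaled reads in YAPTAZ-ECKO 4 and at 0 in the other 3 YAPTAZ-ECKO libraries. Nid1 was highest in YAPTAZ-ECKO 3, at 3576 scaled reads. Col26a1 was highest in YAPTAZ-ECKO 4, at 268.7 scaled reads. Lamb1 was lowest in WT 4, at 642.7 scaled reads. Col15a1 was highest in WT 1, at 216.2 scaled reads.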

How the results depend on the processing

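No gene of the 60 was called under any of the 22 alternatives, and 11 of the 19 tested kept their sign wherever they were tested; Col3a1, Col15a1 and Col26a1 were not tested under the filter of 10 CPM in 4 libraries. Over all tested genes, 3 were called. There were 0 with no filter on low values, with a pseudocount of 1, with the log2 values as deposited and with voom on rebuilt reads, and 0 to 7 with 1 library left out (0 without WT 2, 1 without WT 1 or WT 4, 2 without WT 3, 7 without YAPTAZ-ECKO 3). With the replicate number as a block there were 5; same-numbered libraries deviated together by r of -0.043 to 0.076, so the numbers were not taken to pair them. The median of the tested fibrillar chains, -0.08, was -0.99 with a pseudocount of 1, -1.01 on the deposited log2 values and -0.96 with voom; the cause was not tested. The median over all tested genes, -0.09, was -0.28 with a pseudocount of 1 and -0.25 with voom. Of 263 values of the 19 genes under the 14 settings that keep all libraries, 5 turned sign. Col5a2 turned from 0.18 to -0.55 and -0.11 with pseudocounts of 1 and 16, to -0.64 on the deposited log2 values and to -0.22 with voom, and Col26a1 from -0.26 to 0.62 with voom. With 1 library left out, differences ran from -0.081 to 0.38 for Agrn, -0.43 to 0.66 for Col13a1, -0.64 to 0.066 for Col26a1, -0.22 to 0.72 for Col5a2, -0.18 to 0.37 for Hspg2, -0.53 to 0.051 for Nid1, -0.43 to 0.0038 for Nid2 and -0.11 to 0.11 for Sparc. The other 11 kept their sign but ran from 0.13 to 0.74 for Col15a1, 0.49 to 0.84 for Col18a1, -0.61 to -0.03 for Col3a1, 0.12 to 0.44 for Col4a1, 0.32 to 0.59 for Col4a2, -1.26 to -0.63 for Lama1, -0.54 to -0.17 for Lama4, 0.42 to 1.23 for Lama5, 0.23 to 0.70 for Lamb1, -1.01 to -0.48 for Lamb2 and -0.77 to -0.04 for Lamc1. At these depths 1 read was worth 0.614 to 1.53 scaled reads. Whether separate reads stand for separate molecules was not tested. Col6a6 stood at 863.5 scaled reads in YAPTAZ-ECKO 1 and at 0 in every other library, so a listed 0 is not read as absence.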
